A study of Homo sapiens with 4 samples.

Results

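The genes described here encode feedback inhibitors of ERK signalling and ETS transcription factors that ERK signalling induces, measured in sorted subpopulations of the human lung cancer line PC14 (non-small-cell type). The set comprised 10 genes, defined by name, with earlier results of these data known: the dual-specificity phosphatases DUSP4, DUSP5 and DUSP6, the Sprouty genes SPRY1, SPRY2 and SPRY4, the Sprouty-related genes SPRED1 and SPRED2, and the ETS genes ETV4 and ETV5. They were represented by 24 of the 54675 probe sets on the array and made up 10 of 19775 named genes. Total RNA of 4 subpopulations was hybridised to 1 Affymetrix array each. The subpopulations were E-cadherin-low CD133-high cells (labelled mesenchymal, stem-like), E-cadherin-high CD133-high cells (epithelial, stem-like), E-cadherin-low CD133-low cells (mesenchymal, non-stem-like) and E-cadherin-high CD133-low cells (epithelial, non-stem-like). All came from the same line and were cultured alike, and all were sorted first by the adhesion protein E-cadherin and then by green fluorescence from a lentiviral reporter under the P1 promoter of the CD133 gene. CD133 class therefore reflects activity of that reporter, and no label names a treatment.

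ERK is the last kinase of the RAS, RAF and MEK cascade, which carries signals from growth factor receptors to the nucleus. Active ERK induces its own inhibitors at the transcript level: dual-specificity phosphatases remove the activating phosphates from ERK, and Sprouty and SPRED proteins act upstream, between the receptor and RAF. ETV4 and ETV5, with the related ETV1, are transcription factors whose expression also follows receptor and ERK signalling. Transcripts of these genes are often read as a gauge of pathway output in tumour cells, but no protein or phosphorylation was measured here.

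Values are deposited signals, intensities on a linear scale. The 50th percentile of the probe sets of an array, a signal of 53.7 to 60.3, was taken as its floor, and lower signals were set to it. Where a gene had several probe sets the brightest stood for it (mean log2 signal over the arrays), and by this measure all 10 genes lay above the floor on all 4 arrays. Of their 24 probe sets, 18 lay above the floor on all arrays and 2 on none. For CD133 (high over low) 1 pair of arrays lay among E-cadherin-low cells and 1 among E-cadherin-high cells. For E-cadherin (low over high) 1 pair lay among CD133-high cells and 1 among CD133-low cells. Pairs of the same comparison share no array, but each array enters both comparisons. Genes whose ratio reached 2-fold, with 1 sign in both pairs, were counted as higher or lower. With 1 array per subpopulation no difference has a replicate check, the counts rest on no test, and precision is limited by there being 4 arrays.

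The sorts were reflected in part on the arrays. CDH1, the gene for E-cadherin, read 347.0 and 527.8 in E-cadherin-low cells and 5548 and 3546 in E-cadherin-high cells, with CD133-high given before CD133-low. PROM1, the gene for CD133, was under the floor throughout, at 4.79 to 29.7. Of 5 carcinoma markers 4 were above the floor on all arrays and KRT19 on none, with summed signals of 15603 and 29506 in CD133-high cells, against 15134 and 31065 in CD133-low cells (here and below, E-cadherin-low before E-cadherin-high). Of 4 leukocyte markers PTPRC alone was above the floor on all arrays, and CD14 and LYZ were above it on none. PTPRC read 1102 and 1246 in CD133-high cells, against 505.0 and 345.6 in CD133-low cells, and was counted as higher with CD133. The leukocyte sums were 1190 and 1310 in CD133-high cells, against 537.2 and 430.6 in CD133-low cells. Of 4 endothelial markers only PECAM1 was above the floor, with list sums of 148.3 to 217.6. Of 6 fibroblast markers 3 were above the floor on all arrays and PDGFRB on none, with sums of 23890 and 32191 in CD133-high cells, against 17765 and 24735 in CD133-low cells. COL3A1 made up most of these sums, and 3 dimmer markers were highest on the E-cadherin-low CD133-high array. LUM read 1390.1 and 625.9 in CD133-high cells, against 130.9 and 227.8 in CD133-low cells, and was counted as higher with CD133. DCN read 358.4 and 170.8 against 52.9 (under the floor) and 76.1, and was also counted as higher. COL1A2 read 434.7 and 65.1 in CD133-high cells and was under the floor in CD133-low cells. The 3' over 5' signal ratios of the actin and GAPDH control probe sets were highest on the E-cadherin-low CD133-high array, at 1.78 and 1.02, against 1.53 to 1.59 and 0.898 to 0.963 elsewhere. The part of these differences in the results below was not tested.

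CD133-high cells had higher signals of part of the set, and more of them reached 2-fold among E-cadherin-low cells. There, 5 of the 10 genes were at least 2-fold higher in CD133-high cells (DUSP5, DUSP6, SPRY1, ETV4 and ETV5), against 8.11% of the 14083 measured genes, and 0 were 2-fold lower (background 4.27%). With equal array medians 4 of 10 were 2-fold higher (986 of 14083 measured genes), as were 4 with the mean over probe sets (759 of 14171). In RNA of sorted populations, a change in the number of expressing cells and in RNA per cell cannot be told apart. Among E-cadherin-high cells only DUSP6 of the 10 was at least 2-fold higher (background 5.04%) and 0 were 2-fold lower (background 3.24%). In both pairs DUSP6 alone was counted as higher, 1 of 10 against 2.45% of all measured genes, and 0 of 10 were lower, against 1.12%. At 1.5-fold in both pairs DUSP6, SPRY1 and ETV5 were higher, 3 of 10 against 6.63% of all measured genes, and 0 were lower, against 3.93%. The median log2 ratio of the 10 genes was 0.77 in E-cadherin-low and 0.10 in E-cadherin-high cells, while the median of all measured genes was 0.00 in either. All 10 lay above the floor on all arrays, but of the 14083 measured genes only 10891 did. Genes with both signals of a pair at the floor entered with a ratio of 0. Ratios were above 0 for 8 of 10 genes in E-cadherin-low cells (48.4% of all measured genes) and for 6 of 10 in E-cadherin-high cells (45.9%).

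An additive limma fit, which takes the pairs of a comparison as its only replication, gave different calls with its settings. In its default form it called 0 of 10 members higher and 0 lower for CD133, against 0.192% and 0.199% of all measured genes. At an unadjusted p under 0.05 it passed 3 of 10, against 16.7% of all measured genes. With a mean-variance trend it called DUSP6 higher, 1 of 10 against 1.31%, and 0 lower, against 0.738%. The form with a trend was tried after the default and both counts are given for that reason, so the DUSP6 call holds by the 2-fold rule and by 1 of the 2 fits. For E-cadherin 0 of 10 were called by either form, against 0% in either direction by default, and against 0.0639% higher and 0.0852% lower with the trend (1 of 10 by either form at an unadjusted p under 0.05, where 6.82% and 6.92% of all measured genes passed).

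**Figure D1:**
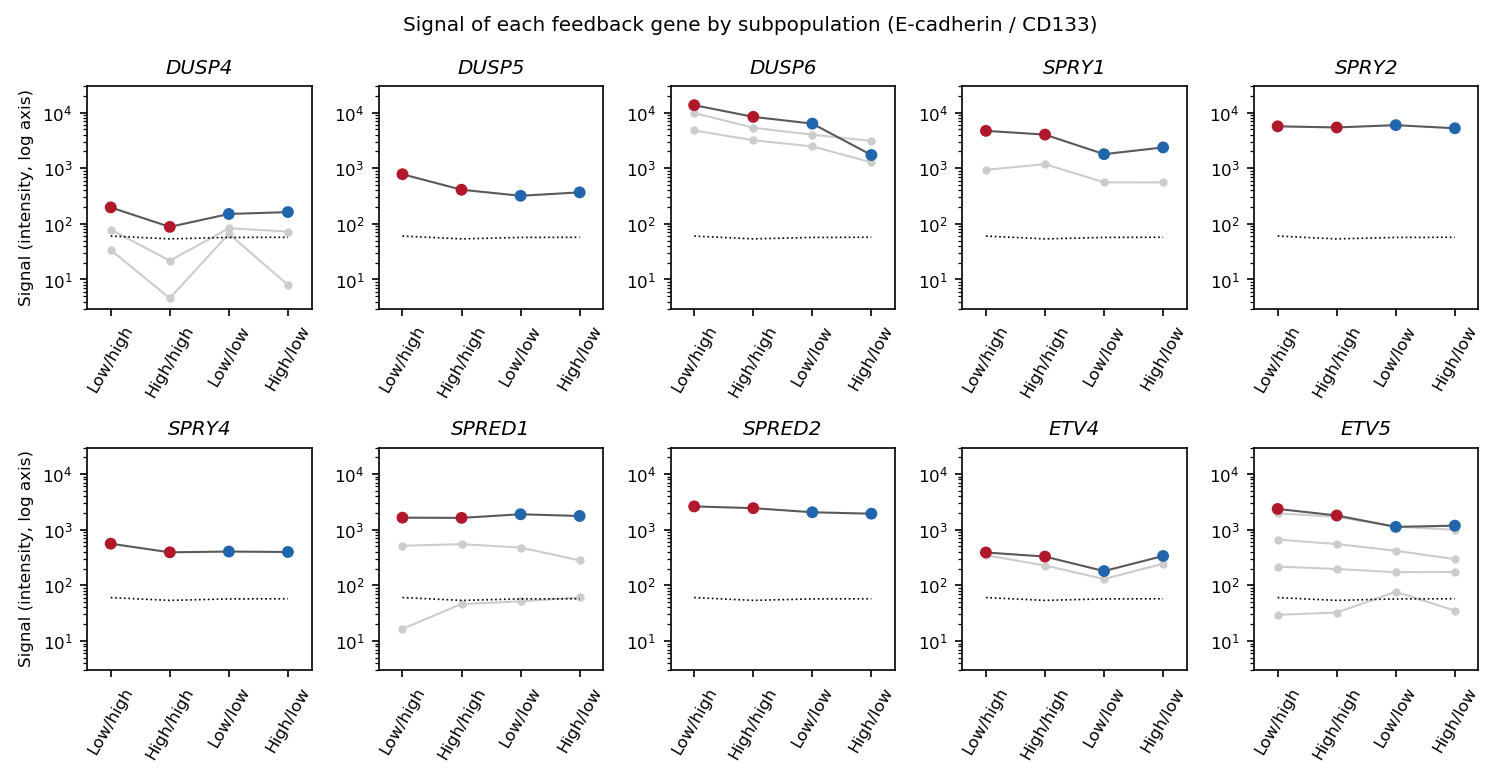
Signal of the 10 genes on each array (log axis), with subpopulations named by E-cadherin and then CD133. Coloured points are the probe set used for a gene (red for CD133-high, blue for CD133-low), grey points its other probe sets with a signal above the floor on at least 1 array, and the dotted line is the floor. DUSP6, SPRY1 and ETV5 stood higher on both CD133-high arrays, and SPRY2 read 5218 to 5937 on all 4.

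DUSP6 encodes a cytoplasmic phosphatase that is selective for ERK. Its signal was 13578 in E-cadherin-low CD133-high and 8371 in E-cadherin-high CD133-high cells, against 6328 in E-cadherin-low CD133-low and 1726 in E-cadherin-high CD133-low cells. Both CD133-high arrays lay above both CD133-low arrays. The log2 ratio was 1.10 in E-cadherin-low and 2.28 in E-cadherin-high cells, or 2.15-fold and 4.85-fold. The second probe set read 9808 and 5332 in CD133-high cells, against 4007 and 3098 in CD133-low cells, and the third 4763 and 3178 against 2463 and 1273. Both kept the order of the 4 arrays. Their CD133 ratios were 1.29 and 0.78 for the second and 0.95 and 1.32 for the third, so neither reached 2-fold in both pairs, and the count of DUSP6 rests on its brightest probe set, which is marked as shared between transcripts. Without such probe sets 0 of 8 members were counted. Over the 3 probe sets the log2 ratio was 1.11 ± 0.17 in E-cadherin-low and 1.46 ± 0.76 in E-cadherin-high cells (SD, n = 3 probe sets, which are not replicates). The wide spread in E-cadherin-high cells lay with the low reading of the brightest probe set on the E-cadherin-high CD133-low array. For comparison, the median SD over the 5197 genes with several probe sets above the floor on all arrays was 0.24 and 0.28 in these pairs.

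DUSP5, a nuclear ERK phosphatase, reached 2-fold with CD133 among E-cadherin-low cells and not among E-cadherin-high cells. It read 779.2 in E-cadherin-low CD133-high and 410.2 in E-cadherin-high CD133-high cells, against 319.5 and 367.9 in the CD133-low cells of the same E-cadherin classes. The E-cadherin-low CD133-high array stood alone, and the other 3 lay close together. The log2 ratios were 1.29 and 0.16, from its single probe set.

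DUSP4, a nuclear phosphatase of ERK and other MAP kinases, did not follow CD133. It read 197.5 and 88.2 in CD133-high cells, against 150.4 and 162.6 in CD133-low cells, E-cadherin-low before E-cadherin-high. The lowest reading was that of E-cadherin-high CD133-high cells, and the ratios had opposite signs, 0.39 in E-cadherin-low and -0.88 in E-cadherin-high cells. These signals were near the floor, and its other 2 probe sets lay below the floor on at least 1 array.

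SPRY1, a membrane-associated inhibitor of receptor tyrosine kinase signalling, stood higher on both CD133-high arrays. Its signals were 4691 and 4015 in CD133-high cells, against 1788 and 2361 in CD133-low cells, E-cadherin-low before E-cadherin-high. The log2 ratios were 1.39 and 0.77. The dimmer probe set read 934.3 and 1182 against 556.2 and 555.6, with ratios of 0.75 and 1.09. Each probe set thus reached 2-fold in 1 pair, not the same one, and over both the ratio was 1.07 ± 0.46 and 0.93 ± 0.23 (SD, n = 2 probe sets).

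SPRY2, a family member with the same role, differed little between the subpopulations. It read 5655 and 5399 in CD133-high cells, against 5937 and 5218 in CD133-low cells, with ratios of -0.07 and 0.05. SPRY4 read 560.4 in E-cadherin-low CD133-high cells and 392.2 to 404.8 on the other arrays, with ratios of 0.47 and -0.02. Within the Sprouty family the CD133 ratios therefore ran from those of SPRY1 to values around 0 for SPRY2.

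Promoter windows of DUSP6, SPRY1 and SPRY2 are shown because the first and second stood higher in CD133-high cells and the third did not. RefSeq windows (GRCh38.p14) matched 6 of the 10 genes, with 10 windows in all, and the 250 bases before the gene start were searched on both strands. Capitals mark CGGAA and its longer form CCGGAA, letters found in ETS binding motifs, or their reverse complements. The shorter GGAA within them was not searched for and also occurs unmarked.
DUSP6, chr12:89352502-89352751, minus strand: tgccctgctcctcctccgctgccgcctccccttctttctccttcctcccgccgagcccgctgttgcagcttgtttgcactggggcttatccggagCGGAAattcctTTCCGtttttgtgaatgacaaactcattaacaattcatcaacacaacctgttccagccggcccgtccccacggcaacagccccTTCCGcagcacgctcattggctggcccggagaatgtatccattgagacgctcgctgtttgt
SPRY1, first start, chr4:123396545-123396794, plus strand: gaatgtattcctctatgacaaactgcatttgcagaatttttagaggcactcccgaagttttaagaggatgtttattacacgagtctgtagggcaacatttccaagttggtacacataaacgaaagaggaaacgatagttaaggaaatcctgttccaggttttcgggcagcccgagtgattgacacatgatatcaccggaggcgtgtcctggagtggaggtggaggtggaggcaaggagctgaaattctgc
SPRY1, second start, chr4:123398136-123398385, plus strand: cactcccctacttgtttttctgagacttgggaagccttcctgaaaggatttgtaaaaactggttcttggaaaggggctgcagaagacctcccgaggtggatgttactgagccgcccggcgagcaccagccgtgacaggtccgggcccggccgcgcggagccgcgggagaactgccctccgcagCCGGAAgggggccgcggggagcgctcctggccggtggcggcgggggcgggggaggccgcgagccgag
SPRY2, first start, chr13:80341127-80341376, minus strand: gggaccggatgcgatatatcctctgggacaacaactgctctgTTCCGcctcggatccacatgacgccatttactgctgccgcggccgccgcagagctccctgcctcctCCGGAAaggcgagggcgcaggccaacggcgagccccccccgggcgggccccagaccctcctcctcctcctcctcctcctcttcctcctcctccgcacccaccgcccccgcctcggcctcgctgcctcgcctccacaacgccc
The DUSP6 window held CGGAA at 3 places, starting at positions -155, -144 and -61 from the gene start. CCGGAA stood at position -67 of the second SPRY1 window and -142 of the first SPRY2 window, where each match also contains CGGAA. That SPRY2 window held CGGAA once more, at position -208, and the first SPRY1 window held neither. The windows of later SPRY2 starts, not shown, and those of SPRY4, SPRED1 and SPRED2 also held neither. Among 35116 RefSeq windows of this length, 14.5% held CCGGAA and 30.3% held CGGAA. The AP-1 motif TGANTCA, in 6.57% of all windows, and the cyclic AMP response element TGACGTCA, in 1.65%, were in 0 of the 10 windows. The letters thus occurred both before a gene that differed with CD133 and before SPRY2, which did not, and a match is no evidence of binding. The motif CGGAA was added after these windows had been read.

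SPRED1 and SPRED2 encode membrane proteins that bring neurofibromin, a RAS inactivator, to RAS. SPRED1 read 1645 and 1631 in CD133-high cells, against 1894 and 1764 in CD133-low cells, with ratios of -0.20 and -0.11. Its second probe set above the floor gave 0.10 and 0.97, so the probe sets differed in E-cadherin-high cells. SPRED2 read 2621 and 2439 in CD133-high cells, against 2058 and 1938 in CD133-low cells, with ratios of 0.35 and 0.33. Both CD133-high arrays were above both CD133-low arrays for SPRED2, by less than 1.5-fold, and its other 2 probe sets were below the floor throughout.

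ETV5 stood higher on both CD133-high arrays. It read 2362 and 1799 in CD133-high cells, against 1124 and 1183 in CD133-low cells, with log2 ratios of 1.07 in E-cadherin-low and 0.61 in E-cadherin-high cells. All 4 of its probe sets above the floor had ratios above 0 in both pairs, from 0.33 to 1.07 and from 0.18 to 0.90, with means of 0.72 ± 0.31 and 0.62 ± 0.32 (SD, n = 4 probe sets). ETV4, its close relative, reached 2-fold among E-cadherin-low cells and not among E-cadherin-high cells. It read 389.8 and 329.0 in CD133-high cells, against 180.5 and 337.3 in CD133-low cells. The reading of E-cadherin-low CD133-low cells was below the other 3, and the ratios were 1.11 and -0.04. The second ETV4 probe set gave 1.42 and -0.12. Outside the set, ETV1, named after its values were seen, read 10498 and 19590 in CD133-high cells, against 4225 and 10923 in CD133-low cells. All 5 of its probe sets had CD133 ratios above 0 in both pairs. These ran from 0.75 to 1.92 in E-cadherin-low and from 0.84 to 1.66 in E-cadherin-high cells. By all 5 its E-cadherin ratios were below 0. They ran from -1.16 to -0.87 in CD133-high cells and from -1.37 to -0.43 in CD133-low cells.

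**Figure D2:**
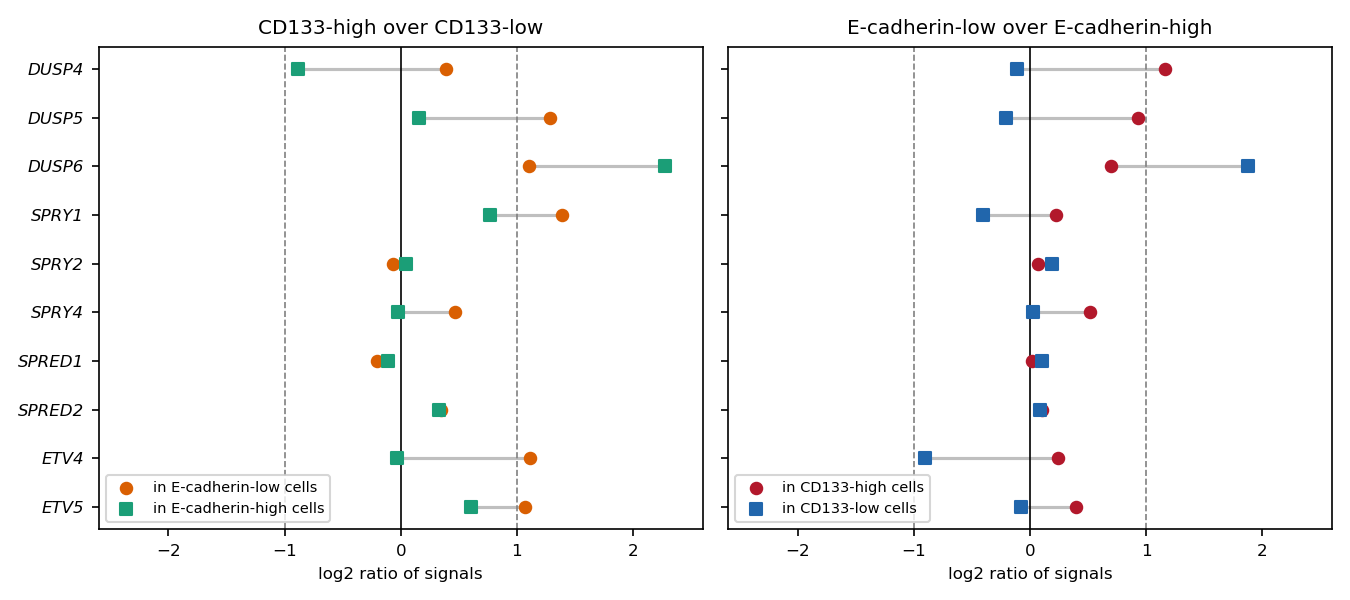
Log2 ratios of signals of the 10 genes in each pair of arrays, CD133-high over CD133-low on the left and E-cadherin-low over E-cadherin-high on the right. Each gene has 1 point per pair, a grey line joins its 2 points, and dashed lines mark 2-fold. Only DUSP6 lies beyond 2-fold in both pairs, and only for CD133.

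Between the E-cadherin classes fewer of the genes reached 2-fold. In the E-cadherin comparison 0 of 10 were counted as higher (background 0.476%) and 0 as lower (0.540%). At 1.5-fold DUSP6 alone was higher in both pairs, 1 of 10 against 1.78% of all measured genes, and 0 were lower, against 1.83%. Its log2 ratios were 0.70 in CD133-high cells, against 1.87 in CD133-low cells. By its other probe sets these ratios were 0.88 and 0.37, and 0.58 and 0.95. In single pairs, 1 of 10 was at least 2-fold higher in CD133-high cells (background 3.81%), 1 in CD133-low cells (2.63%), and 0 were 2-fold lower (2.53% and 2.87%). The first was DUSP4, with 1.16 in CD133-high cells, against -0.11 in CD133-low cells, and the second was DUSP6. The largest ratio in the other direction was that of ETV4, which had 0.24 in the CD133-high pair and -0.90 in the CD133-low pair. The median of the 10 ratios was 0.32 in the CD133-high pair and -0.02 in the CD133-low pair, and that of all measured genes was 0.00 in either.

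The direction of the E-cadherin ratios differed between the CD133 classes, a difference that was not tested. By the brightest probe sets all 10 ratios in CD133-high cells were above 0, from 0.01 for SPRED1 to 1.16 for DUSP4, against 48.3% of all measured genes. In CD133-low cells 5 of 10 were above 0, against 43.8%. The dimmer SPRY1 probe set gave -0.34 in CD133-high cells, and the second SPRED1 probe set gave -0.10. With the mean over probe sets 9 of 10 were above 0 in CD133-high cells (54.3% of all measured genes). By that setting 7 of 10 were above 0 in CD133-low cells (45.1%). The positive ratios of the 10 genes in CD133-high cells depend in part on scaling. Equal array medians moved the median of all measured genes to -0.12 in that pair. By that scaling 7 of the 10 were above 0, against 33.1% of all measured genes. The 3 that turned were SPRY2, SPRED1 and SPRED2, whose ratios had been at most 0.10.

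Of the 10 genes, 8 had their highest signal on the E-cadherin-low CD133-high array, where 30.2% of all measured genes had theirs. The exceptions were SPRY2 and SPRED1, which were highest in E-cadherin-low CD133-low cells and varied least. With equal array medians 7 of 10 were highest on the E-cadherin-low CD133-high array (21.1% of all measured genes). With the mean over probe sets it was also 7 of 10 (34.6%). The dimmer SPRY1 probe set was highest in E-cadherin-high CD133-high cells. None of the 10 was lowest on the E-cadherin-low CD133-high array, against 28.9% of the 11806 genes above the floor on at least 3 arrays. Of the 14 related DUSP and ETS genes, 3 were highest on that array. The CD133 ratios in E-cadherin-low cells and the E-cadherin ratios in CD133-high cells share this array, so they are not separate observations of it, and 1 array cannot be told apart from the subpopulation it stands for.

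**Figure D3:**
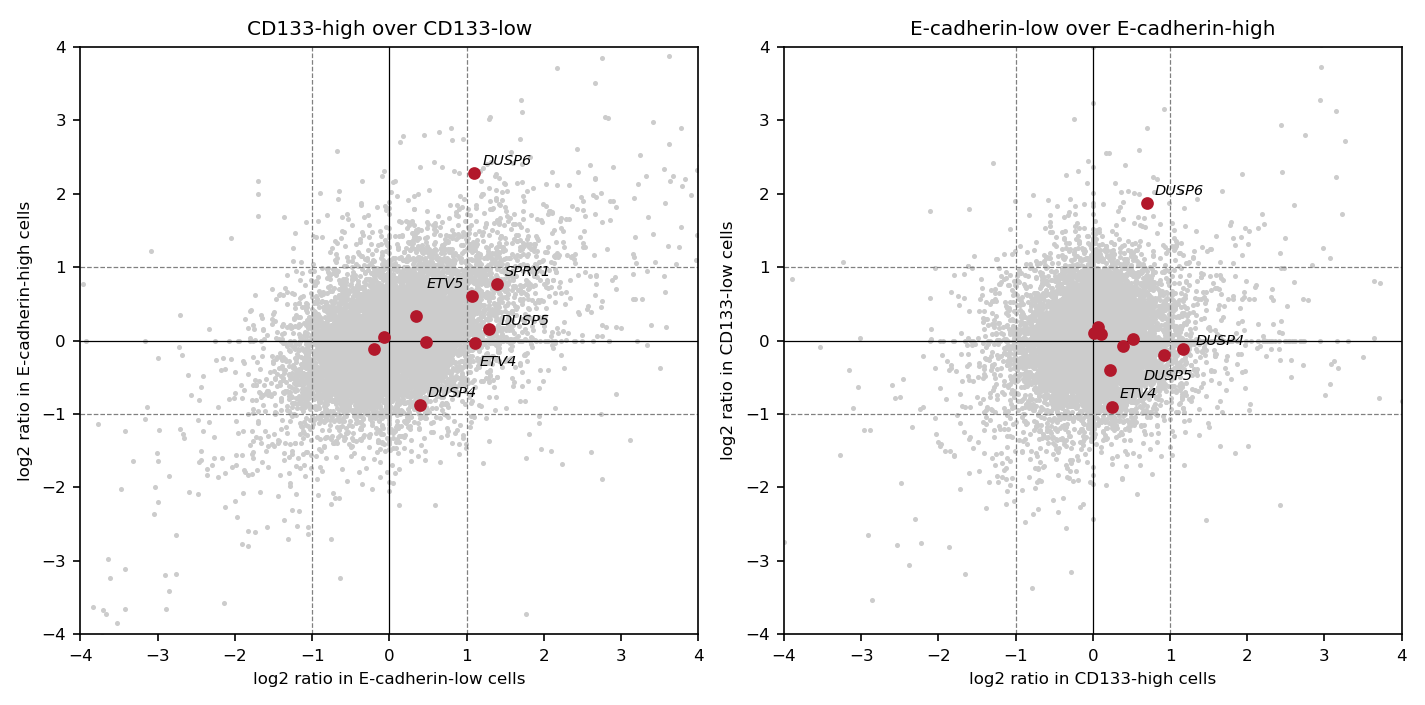
Log2 ratios of the 14083 measured genes in the 2 pairs of each comparison (grey) with the 10 genes in red, CD133 on the left and E-cadherin on the right. Dashed lines mark 2-fold, those of the 10 with larger ratios are named, and 32 and 14 genes lie outside the axes. DUSP6 lies in the upper right of the CD133 panel, and in the E-cadherin panel all 10 genes lie right of 0.

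The genes whose pattern over the 4 arrays came nearest to DUSP6 were ZXDB, TLE4, WDR17, KICS2 and ETAA1. Their centred log2 signals differed from those of DUSP6 by a root mean square of 0.16, 0.18, 0.20, 0.28 and 0.29, among 10890 genes above the floor on all arrays. With 4 arrays a like pattern is common, and 426 genes had a Pearson r of at least 0.95 with DUSP6.

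Genes that ERK signalling is known to induce, outside the set, were measured for 27 of 30 listed. FOSL1, an AP-1 subunit, and VGF, a secreted neuropeptide precursor, were counted as higher in CD133-high cells, 2 of 27 against 2.45% of all measured genes, and 0 were lower (1.12%). FOSL1 read 294.2 and 127.4 in CD133-high cells and lay below the floor in CD133-low cells, at least 5.16-fold and 2.22-fold higher. VGF had log2 ratios of 1.73 and 1.76. In E-cadherin-low cells 11 of the 27 were at least 2-fold higher in CD133-high cells (background 8.11%), and 0 were lower (4.27%). In E-cadherin-high cells 2 were higher (background 5.04%) and 4 lower (3.24%). Of the 27, 15 were highest in E-cadherin-low CD133-high cells (30.2% of all measured genes), 10 in E-cadherin-high CD133-low cells (25.9%) and 0 in E-cadherin-high CD133-high cells (19.7%). Their E-cadherin ratios were above 0 for 25 of 27 in CD133-high cells (48.3% of all measured genes) and for 7 of 27 in CD133-low cells (43.8%). With equal array medians 21 of 27 were above 0 in CD133-high cells (33.1% of all measured genes). By that scaling 13 of 27 were highest in E-cadherin-low CD133-high cells (21.1%).

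Individual genes of that list, named after their values were seen, show both forms. PHLDA1, often used as a marker of ERK output, read 1469 in E-cadherin-low CD133-high cells and 163.7 to 240.8 elsewhere. The gap was smaller by its other probe set above the floor on all arrays, with 277.9 there and 104.1 to 180.7 elsewhere. EGR3, an immediate early transcription factor, read 1280 there and 126.9 to 326.8 elsewhere. FOS, the AP-1 subunit, read 2329 and 1037 in CD133-high cells, against 1026 and 1934 in CD133-low cells, E-cadherin-low before E-cadherin-high. FOS was thus high in 2 subpopulations that share neither class.

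**Figure D4:**
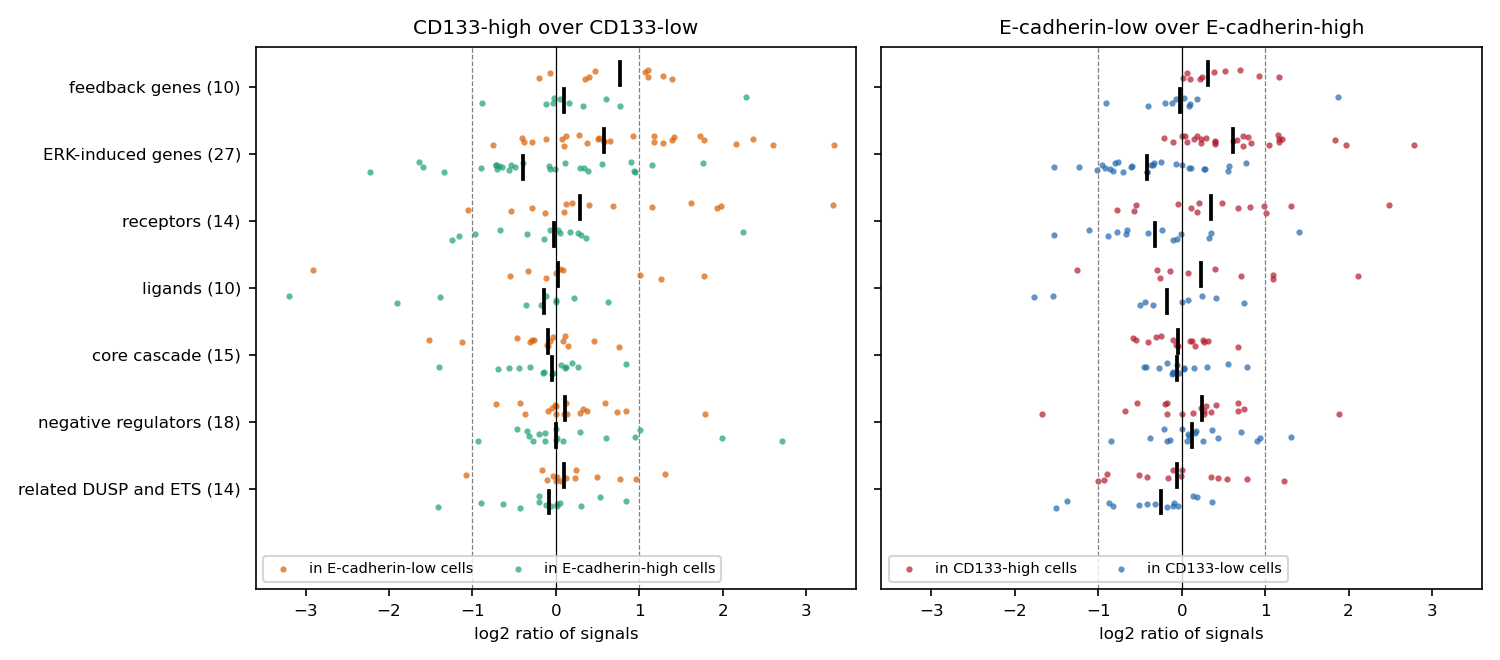
Log2 ratios of the feedback genes and of 6 lists of other pathway genes, with the number measured in parentheses. Each point is a gene in 1 pair of arrays, black bars are medians and dashed lines mark 2-fold. The ERK-induced genes have medians of 0.58 and -0.40 for CD133 in E-cadherin-low and E-cadherin-high cells, and of 0.62 and -0.42 for E-cadherin in CD133-high and CD133-low cells.

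Upstream, 1 ligand, 2 receptors and 1 member of the cascade were counted for CD133, where 2.45% of all measured genes were higher and 1.12% lower. Of 10 measured ligands 1 was lower in CD133-high cells, HBEGF, an EGF receptor ligand, with 366.4 and 872.3 against 2754 and 8016 in CD133-low cells, and it was also lower in E-cadherin-low cells (-1.25 and -1.54, but -0.37 and -0.97 by its second probe set). Of 14 measured receptors AXL was higher with CD133 (3.32 and, as a bound, 2.24) and with low E-cadherin (2.49 and, as a bound, 1.40), and MET, the receptor of HGF, was lower with CD133 (-1.06 and -1.16), though its second probe set above the floor on all arrays gave -0.23 in E-cadherin-low cells.

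Within the cascade, SOS1, a RAS exchange factor, was lower in CD133-high cells, 1 of 15 measured. It read 2042 and 2986 in CD133-high cells, against 5848 and 7896 in CD133-low cells, with ratios of -1.52 and -1.40. The other 3 SOS1 probe sets above the floor on all arrays ranged from -1.42 to -2.05 in E-cadherin-low and from -0.80 to -0.93 in E-cadherin-high cells. HRAS had ratios of -1.13 and -0.70. The kinases ARAF (-0.29 and 0.12), MAP2K1 (-0.07 and -0.44), MAP2K2 (0.11 and 0.19) and MAPK3 (-0.46 and 0.06) stayed within 1.5-fold by their brightest probe sets, but the second ARAF probe set gave 0.22 and 0.74. Of 18 measured negative regulators 0 were counted in either comparison. Of 14 related DUSP and ETS genes, DUSP8 alone was counted, lower in E-cadherin-low cells (at least 2.01-fold, a bound, and 2.84-fold lower, but log2 ratios of -0.25 and -0.50 by its other probe set). Over all 98 measured genes of these lists, 3 were higher and 3 lower with CD133 (2.45% and 1.12% of all measured genes), and 1 was higher and 2 lower with low E-cadherin (0.476% and 0.540%).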

How the data were processed

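The deposited table held 1 linear intensity per probe set and array. Per the submitters' processing notes the tool was MAS5; the sources used here do not give its settings. A mean over the deposited values, trimmed of the top and bottom 2%, was 500.1 on each array, so arrays had been scaled. Detection calls were not used here.

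Of 54675 probe sets, 62 were controls. The platform annotation gave 1 symbol for 41097 and several for 1801, which were left out. Another 11777 were unnamed here. Gene IDs of 41043 matched RefSeq (GRCh38.p14). A gene was measured when above the floor on at least 1 array (14083 of 19775). Where both signals of a pair were at the floor the ratio was set to 0, and where 1 was, it is a bound. With 1 array per group the counts include no test. An additive limma fit (1 residual degree of freedom, Benjamini-Hochberg threshold 0.05) was an alternative, given as counts, and its form with a mean-variance trend was added after the calls of both forms had been seen.

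The members and lists were chosen with earlier results of these data known. Named are the members, CDH1, PROM1, the kinases and RAS genes of the cascade, list genes counted in a comparison, and the 5 nearest patterns to each counted member. Any other gene is said to have been picked after its values were seen. Some genes of the lists are not reported here. The counting rule was tested on simulated data in which CD133 effects were planted alike in both pairs. Effects that differ between the pairs were not planted. Tools were Python 3.11.15, numpy 2.4.6, pandas 2.3.3, matplotlib 3.10.9, R 4.3.3 and limma 3.58.1.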

Additional observations from a re-analysis of the deposited data

Results flagged for a closer look

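EGR1, an immediate early transcription factor on the list of ERK-induced genes, had ratios of at least 2-fold in opposite directions in the pairs of both comparisons. It read 6515 in E-cadherin-low CD133-high, 1824 in E-cadherin-high CD133-high, 1902 in E-cadherin-low CD133-low and 5504 in E-cadherin-high CD133-low cells. The CD133 log2 ratio was 1.78 in E-cadherin-low and -1.59 in E-cadherin-high cells, and the E-cadherin ratio was 1.84 in CD133-high cells, against -1.53 in CD133-low cells. The other 2 EGR1 probe sets had the same signs. The ratios share arrays, and the difference between them was not tested. None of the 10 feedback genes had such opposite ratios at 2-fold.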

How the results depend on the processing

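The count of members higher in CD133-high cells was 1 at 2-fold, 0 without probe sets marked as shared between transcripts, 3 at 1.5-fold, and 0 at 3-fold and by the additive limma fit. Limma with a mean-variance trend, a form chosen after both results were seen, gave 1, and so did the other 6 alternatives. Without shared probe sets ETV4 and SPRY4 had no value. Members higher in E-cadherin-low cells numbered 1 at 1.5-fold and 0 in the report and under the other alternatives. Other pathway genes higher with CD133, 3 in the report, numbered 5 with equal array medians and with the mean over probe sets, 1 with the floor at the 65th percentile and without shared probe sets, 9 at 1.5-fold and 0 by the limma fit. Those lower with CD133, also 3, numbered 1 with the mean over probe sets, at 3-fold and by the limma fit, and 5 at 1.5-fold. Those higher with low E-cadherin (1) numbered 3 at 1.5-fold and 0 with the floor at the 65th percentile, the mean over probe sets, no shared probe sets, 3-fold and both limma fits. Those lower (2) numbered 5 at 1.5-fold, 1 with the higher floor and without shared probe sets, and 0 with the mean over probe sets, at 3-fold and by both limma fits. Some alternatives were added after the data were seen. Without shared probe sets, where fewer genes had a value, 5 of 8 members were highest in E-cadherin-low CD133-high cells (31.5% of all measured genes). By the same setting 3 of 8 members were 2-fold higher with CD133 in E-cadherin-low cells, against 903 of 11095 measured genes. Of 18 ERK-induced genes 16 had E-cadherin ratios above 0 in CD133-high cells, against 49.3% of all measured genes. The cause of the other changes was not tested. Over the alternatives of scaling, floor and probe sets the mean CD133 ratio of DUSP6 (1.69) ranged from 1.04 to 1.75 and that of ETV5 (0.84) from 0.49 to 0.85, and the mean E-cadherin ratio of DUSP6 (1.29) ranged from 0.63 to 1.30. Mean ratios near 0 turned for DUSP4 (CD133, -0.25, and 0.15 with the floor at the 65th percentile), SPRED1 (CD133, -0.16, and 0.11 with the mean over probe sets; E-cadherin, 0.06, and -0.02 with equal array medians) and SPRY2 (CD133, -0.01, and at most 0.01). The CD133 ratio of SPRED2 was 0.34, and 0.11 with the mean over probe sets. No block by replicate number was fitted, since the labels carry none; the additive limma fit takes the other sort as its block.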

Other observations

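Several receptors of growth factors also had their highest signals in E-cadherin-low CD133-high cells, chosen here after their values were seen. In E-cadherin-low cells 5 of 14 measured receptors were at least 2-fold higher in CD133-high cells by their brightest probe sets (background 8.11%), and 1 was lower (4.27%). In E-cadherin-high cells 1 was higher (5.04%) and 2 were lower (3.24%). EGFR, the EGF receptor, read 2118 in E-cadherin-low CD133-high cells and 535.0 to 851.4 on the other arrays. Its other probe sets above the floor on all arrays gave CD133 ratios of 1.18, 1.96 and 0.25 in E-cadherin-low cells. ERBB3, a kinase-impaired partner of EGFR, read 2385 and 2213 in CD133-high cells, against 622.5 and 1791 in CD133-low cells, E-cadherin-low before E-cadherin-high. ERRFI1, a feedback inhibitor of EGFR, read 9205 in E-cadherin-low CD133-high cells and 2490.2 to 3018 elsewhere. LRIG3, a membrane protein related to the receptor inhibitor LRIG1, was highest in a different subpopulation, with 1401 in E-cadherin-high CD133-high cells and 213.8 to 438.9 elsewhere.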
